A study of Mus musculus with 4 samples.

Results

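The comparison described here is the array of haematopoietic stem cells labelled Foxo3a knockout (Foxo3aKO) against the wild-type array (WT), 2 of the 4 arrays of the study, across all genes the arrays could measure. RNA came from bone marrow of mice aged 2 months, taken by sorting mononuclear cells without lineage antigens or CD34 but with c-Kit and Sca-1 on their surface, and was read on Affymetrix Mouse Gene 2.0 ST arrays. The array titles also carry the word SLAM, which this gate does not include. The remaining 2 arrays carried a Fancd2 knockout (Fancd2KO) and a Fancd2 and Foxo3a double knockout (DKO). DKO minus Fancd2KO is thus a further pair whose genotype labels differ by Foxo3a alone, with neither array in common with the first pair. The targeting of either gene, its exons, the strain, the sex of the mice and the number of mice or cells behind an array are not given in the sources used here. Each genotype had 1 array, so no difference below has a replicate check, no p-value is given, and directions rest on the labels.

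FOXO3 is a forkhead transcription factor that enters the nucleus when growth factor signalling through PI3K and AKT is low, and leaves it when AKT phosphorylates it. There it activates genes of cell cycle arrest, antioxidant defence, autophagy and apoptosis. In blood-forming stem cells FOXO factors are known for keeping cells quiescent and limiting oxidative stress, and mice without Foxo3 lose stem cell function with age.

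Values are log2 expression, and a difference is the Foxo3aKO value minus the WT value, so that 1 is 2-fold. A gene was compared where its highest signal over the 4 arrays reached a floor of 5.51, the median of all gene values, and 12041 of 22180 genes did. WT and Foxo3aKO correlated across all 41345 probe sets with a Pearson r of 0.968, and the array medians of the 4 arrays ran from 5.27 to 5.34. The median difference over the genes compared was -0.04 and the median size of a difference was 0.235. For 544 genes with 2 probe sets, the 2 measurements of the same difference disagreed with an SD of 0.45, and 95% of them disagreed by less than 0.91.

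The targeted gene was examined first. Foxo3 was at 6.62 on the WT array and 6.64 on the array labelled Foxo3aKO, with 6.72 on Fancd2KO and 6.51 on DKO. The signal was thus no lower on the knockout array, with a difference of 0.02, and since the deleted exons and the exons under the probe set are not given, it does not check the label. The other FOXO genes also lay close together, with differences of 0.13 for Foxo1, -0.14 for Foxo4 and -0.06 for Foxo6. A 2nd probe set of Foxo1 gave -0.41. Of the 16 genes nearest to Foxo3 among those compared that carry a known gene's symbol, 8 on each side, 0 were 2-fold apart. They ran from -0.57 for Sesn1 to 0.40 for Sec63. Over all genes 3.11% were 2-fold apart, and 16 genes are too few to tell 0 from that share. Fancd2, intact by label in both genotypes, was at 6.56 on WT and 6.67 on Foxo3aKO.

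On the Foxo3aKO array 218 genes were at least 2-fold higher than on WT, 1.81% of those compared, and 156 were at least 2-fold lower, 1.30%, so that 374 or 3.11% were past 2-fold. The WT signal of 84 of the 218 lay under the floor, as did the Foxo3aKO signal of 52 of the 156, and 157 and 123 stayed past 2-fold when dim signals were raised to the floor. Which direction held more genes changed with the scaling. Higher genes were 58.3% of those past 2-fold as deposited and 46.7% with each array centred on its median, at 185 higher and 211 lower. Counted by sign alone, 5366 genes were higher (44.6%) and 6672 lower (55.4%).

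**Figure D1:**
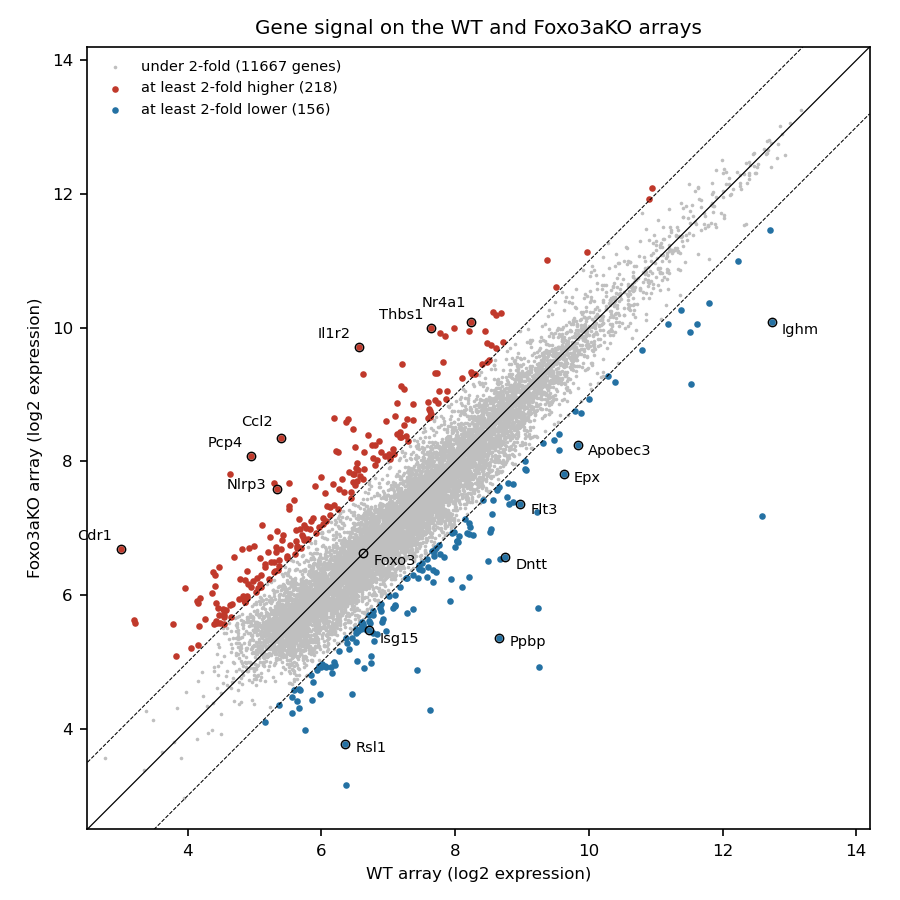
Log2 expression of 12041 genes on the WT array (horizontal axis) and the Foxo3aKO array (vertical axis), 1 point per gene, with dashed lines at 2-fold. The 218 genes at least 2-fold higher are red, the 156 at least 2-fold lower are blue, and Foxo3 lies on the diagonal.

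The largest differences in favour of Foxo3aKO were led by Cdr1, at 2.995 on WT and 6.69 on Foxo3aKO, a difference of 3.70. Its Fancd2KO signal was 7.69 and its DKO signal 3.002, so Cdr1 was high on both single knockouts and low on WT and DKO. Cdr1 lies opposite an antisense transcript, and the strand its probe set reads is not given in the sources used here. Pcp4, a calmodulin-binding peptide of neurons, followed the same order, with 4.95 on WT, 8.09 on Foxo3aKO, 8.67 on Fancd2KO and 5.78 on DKO. The synaptic gene Snap25 differed by 2.14 and Cpe, a carboxypeptidase that processes peptide hormones, by 1.96, and both were likewise high on the single knockouts only. Raising dim signals to the floor, the differences of Cdr1, Pcp4, Snap25 and Cpe came to 1.19, 2.58, 0.60 and 0.92.

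Several other leaders belonged to Foxo3aKO more than to any other array. Thbs1, which encodes the matrix protein thrombospondin 1, was at 10.003 on Foxo3aKO against 7.65 on WT, 7.86 on Fancd2KO and 7.49 on DKO. Olfm4, a neutrophil granule gene, was at 9.46 against 7.20, 7.26 and 6.997 on the same arrays. Cd3d, a chain of the T cell receptor complex, was at 8.64 against 6.40, 6.89 and 7.40. In these 3 genes the Foxo3aKO signal stood at least 2-fold above each of the others, as it did in 60 of the 218 genes. The corresponding number of genes above all other arrays was 38 for WT, 33 for Fancd2KO and 54 for DKO. Gdpd3, a lysophospholipase D (2.47), and the guidance ligand Slit2 (2.38) were higher on all 3 knockout arrays than on WT, Gdpd3 with 6.18 on WT, 8.27 on Fancd2KO, 8.65 on Foxo3aKO and 8.45 on DKO.

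**Figure D2:**
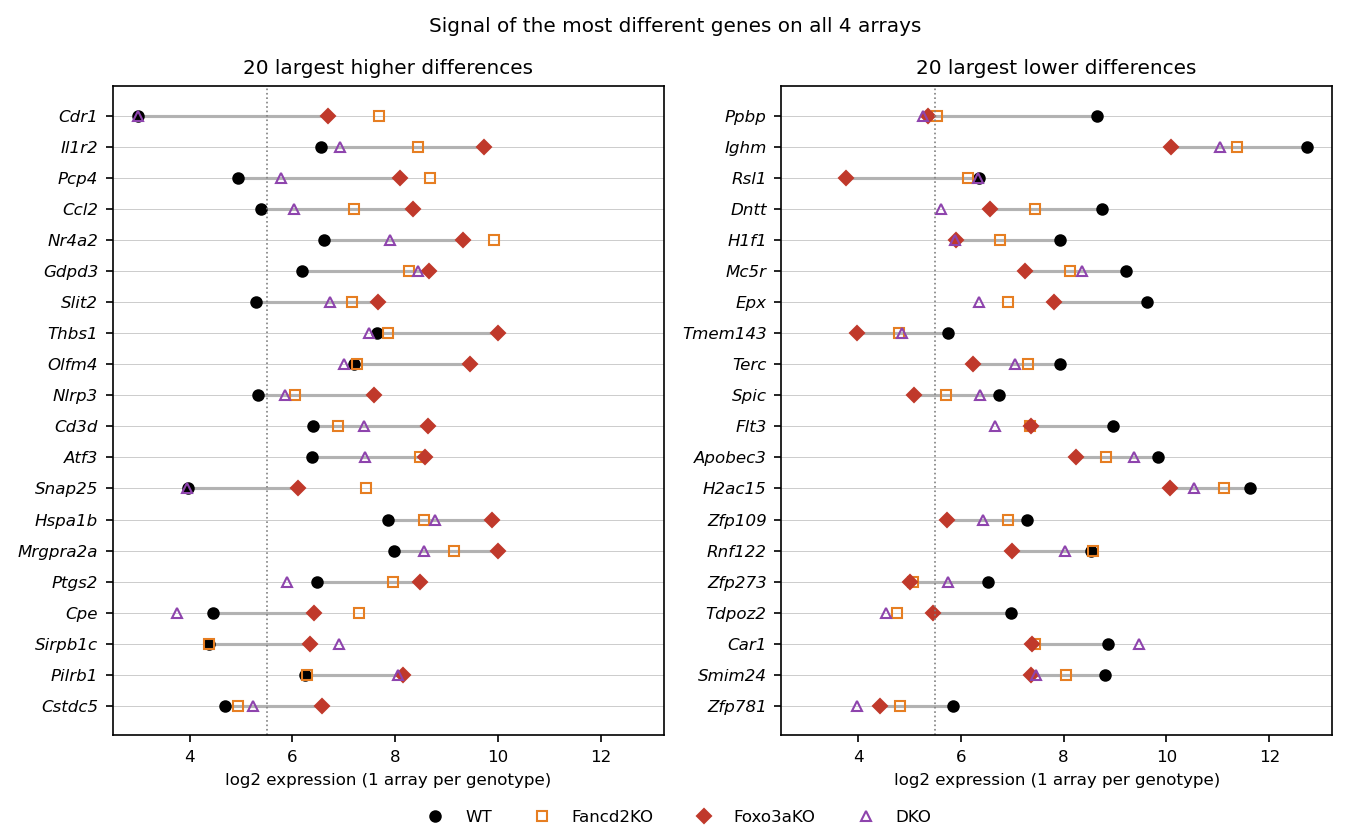
Log2 expression on each of the 4 arrays (horizontal axis) for the 20 genes with the largest higher difference (left) and the largest lower difference (right), with grey bars from WT to Foxo3aKO and a dotted line at the floor of 5.51. Cdr1, Pcp4, Snap25 and Cpe are high on both single knockouts and low on DKO, whereas Thbs1 and Olfm4 are high on Foxo3aKO alone.

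Among genes lower on Foxo3aKO, Ppbp, a platelet chemokine, had the largest difference, with 8.66 on WT and 5.37 on Foxo3aKO (-3.29). The Foxo3aKO signal lay under the floor, and with dim signals raised the difference was -3.15. Fancd2KO at 5.55 and DKO at 5.27 were as dim, so the WT array alone was high. WT stood at least 2-fold above every knockout in 38 of the 156 lower genes, and Foxo3aKO stood at least 2-fold below every other array in 9. Rsl1, a zinc finger gene, was one in which Foxo3aKO was alone, at 3.77 against 6.36 on WT, 6.14 on Fancd2KO and 6.33 on DKO, although its difference shrank from -2.59 to -0.85 with dim signals raised. Mc5r, a melanocortin receptor gene, was at 9.22 on WT and 7.25 on Foxo3aKO, with 8.13 and 8.36 on Fancd2KO and DKO. Rnf122, which encodes a ubiquitin ligase, was at 8.53 on WT, 8.57 on Fancd2KO, 6.99 on Foxo3aKO and 8.03 on DKO, lowest on Foxo3aKO.

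Immediate early genes, which cells transcribe within minutes of a stimulus, had the highest median of the lists examined. Of 38 members compared, 36 were higher on Foxo3aKO, against 44.6% of all genes. At least 2-fold higher were 15 and at least 2-fold lower 0, against 1.81% and 1.30% of all genes. Their median difference was 0.86, beside -0.04 over all genes. The orphan nuclear receptors came first. Nr4a2 was at 6.62 on WT and 9.31 on Foxo3aKO, with 9.92 on Fancd2KO and 7.89 on DKO. Nr4a1, which restrains stem cell cycling, was at 8.23 on WT and 10.09 on Foxo3aKO, with 11.05 on Fancd2KO and 9.03 on DKO. Nr4a3 differed by 1.13. In each of these receptor genes Fancd2KO was the highest array and Foxo3aKO the next, with WT and DKO below both.

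The factors of the AP-1 and EGR families lay on the same side. Fos was at 8.47 on WT, 9.50 on Fancd2KO, 9.77 on Foxo3aKO and 8.36 on DKO. Fosb differed by 1.59, Egr1 by 1.67, the stress factor Atf3 by 2.22, and Jun and Junb by 0.95 and 0.88. The Kruppel-like factors Klf4 (1.49), Klf6 (1.20) and Klf2 (1.07) were higher too, as were the feedback inhibitors Socs3 (1.25), Dusp5 (1.22), Btg2 (1.10) and Sik1 (1.01). Socs3 is dim on WT, at 4.97, and its 2nd probe set gave 0.09. The exceptions were Myc, a driver of growth, at 9.34 on WT and 8.85 on Foxo3aKO, and Klf10, with a difference of -0.12.

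Inflammatory genes contributed further large values. In the list of NF-kB, cytokine and chemokine genes 32 of 41 members were higher and 8 passed 2-fold upwards, beside 44.6% and 1.81% of all genes. The median was 0.25, or 0.74 with the floor raised to 7.25. Il1r2, the decoy receptor that binds interleukin 1 without signalling, was at 6.55 on WT and 9.72 on Foxo3aKO, an 8.96-fold difference, with 8.45 on Fancd2KO and 6.92 on DKO. The monocyte chemokine gene Ccl2 was at 5.39 on WT and 8.35 on Foxo3aKO, with 7.21 and 6.02 on Fancd2KO and DKO. Both genes were thus highest on Foxo3aKO, next on Fancd2KO and lowest on WT. Ptgs2, the inducible cyclooxygenase, differed by 2.01, the neutrophil chemokine Cxcl2 by 1.503, Tnf by 1.46, and the NF-kB feedback gene Tnfaip3 by 1.04. The signalling receptor Il1r1 went the other way, with 7.20 on WT and 6.53 on Foxo3aKO, as did the interferon-induced chemokine Cxcl10, at -0.81.

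Of 15 genes of the inflammasome and the interleukin 1 pathway, 12 were higher and 3 passed 2-fold upwards, beside 44.6% and 1.81% of all genes. The sensor Nlrp3 was at 5.33 on WT, under the floor, and 7.59 on Foxo3aKO, with 6.06 on Fancd2KO and 5.85 on DKO. The receptor antagonist Il1rn differed by 1.01 and Il1b by 0.77, while the adaptor Pycard lay at -0.16 and Casp1 at 0.11. The heat shock genes Hspa1a (1.60) and Hspa1b (2.02), near-identical copies whose signals are uncertain apart, were also higher. In the list of 21 chaperones and heat shock genes 13 were higher, beside 44.6% of all genes, and the median was 0.11. Slc7a11, the cystine importer, was at 5.52 on WT and 7.34 on Foxo3aKO, with 5.78 and 5.81 on the remaining arrays.

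Interferon response genes went the other way. Of 53 members compared, 45 were lower on Foxo3aKO, 5 of them at least 2-fold and 0 past 2-fold upwards, beside 55.4% and 1.30% of all genes lower and 2-fold lower. The median was -0.35. The promoters of 3 lower members are shown because the interferon-stimulated response element, the sequence to which STAT and IRF factors bind, can be read in them. Each is the 250 bases before the RefSeq gene start, 5′ to 3′ on the gene's strand, build GRCm38.p6, and capitals mark matches of its core, GAAA followed by any 2 bases and GAAA, on either strand, which run together where they overlap.
Isg15, chr4:156200819-156201068, minus strand: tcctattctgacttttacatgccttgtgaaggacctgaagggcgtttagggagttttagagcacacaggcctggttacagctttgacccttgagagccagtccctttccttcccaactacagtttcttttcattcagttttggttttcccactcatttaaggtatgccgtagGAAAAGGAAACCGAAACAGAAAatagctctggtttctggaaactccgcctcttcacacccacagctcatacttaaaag
Ifit1, chr19:34640639-34640888, plus strand: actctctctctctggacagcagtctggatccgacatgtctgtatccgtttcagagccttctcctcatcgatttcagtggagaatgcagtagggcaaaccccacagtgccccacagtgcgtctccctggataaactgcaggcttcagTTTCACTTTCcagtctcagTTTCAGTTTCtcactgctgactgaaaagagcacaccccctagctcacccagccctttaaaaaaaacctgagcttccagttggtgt
Apobec3, chr15:79892158-79892407, plus strand: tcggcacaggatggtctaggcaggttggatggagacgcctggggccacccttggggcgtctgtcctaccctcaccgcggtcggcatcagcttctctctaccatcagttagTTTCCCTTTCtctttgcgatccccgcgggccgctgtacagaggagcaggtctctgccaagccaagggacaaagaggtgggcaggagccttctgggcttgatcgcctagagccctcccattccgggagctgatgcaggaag

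These letters occur in the same window of 3.46% of 27025 genes and of 15 of the 43 interferon response members with a promoter sequence, 34.9%. All 15 members with a match were lower on Foxo3aKO, with a median of -0.36, and 22 of the 28 without one were lower, with a median of -0.21. A match describes the sequence and does not show that a factor binds there.

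Apobec3, an antiviral cytidine deaminase, had the largest difference of the list, with 9.83 on WT, 8.83 on Fancd2KO, 8.24 on Foxo3aKO and 9.36 on DKO. Isg15, a ubiquitin-like modifier, was at 6.72, 6.29, 5.47 and 5.99 on the same arrays, and Usp18, the protease that removes it, at 7.44, 6.73, 6.26 and 7.05. In all 3 genes WT was the brightest array and Foxo3aKO the dimmest. Rtp4 (-1.19) and Lgals3bp (-1.01) were the other members past 2-fold. Ifit1, which binds foreign RNA, and Irf7, the factor that amplifies interferon production, each differed by -0.86, followed by Bst2 (-0.84) and Oas2 (-0.72). Members on the higher side were small in size, among them Herc6 at 0.24 and Ifitm3 at 0.17. Of 9 MHC class II genes 6 were lower and 3 higher, beside 55.4% and 44.6% of all genes. Their median was -0.38, and 1 was at least 2-fold lower, beside 1.30% of all genes. Their regulator gene Ciita differed by -0.38. The peptide-loading genes H2-Ob (-1.03), H2-DMb2 (-0.82) and H2-DMa (-0.77) were lower, and the antigen-presenting chains H2-Aa (0.13) and H2-Ab1 (0.53) were higher. H2-Ob was under the floor on Foxo3aKO and differed by -0.46 with dim signals raised.

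Of 40 FOXO target genes compared, 28 were lower and 12 higher, where 55.4% and 44.6% of all genes were. Of the 40, 3 were at least 2-fold higher and 0 at least 2-fold lower, beside 1.81% and 1.30% of all genes. The median was -0.18. The 3 past 2-fold were Klf2, Klf4 and Klf6, which are also immediate early genes, and without the members shared with that list the median of 37 was -0.22. Cdkn1b, the cell cycle inhibitor p27, was at 9.35 on WT, 8.83 on Fancd2KO, 8.46 on Foxo3aKO and 8.34 on DKO. Fbxo32, a ubiquitin ligase of muscle wasting, differed by -0.89. The autophagy genes Gabarapl1 (-0.87) and Ulk1 (-0.67), the sestrins Sesn3 (-0.81) and Sesn1 (-0.57), which restrain mTOR under stress, and the PI3K inhibitor Pik3ip1 (-0.64) were lower as well. Among antioxidant targets, mitochondrial Prdx3 differed by -0.67 and catalase, Cat, by -0.49, whereas Sod2 was level at 0.02. The death gene Bcl2l11 (0.02), Ccng2 (-0.02) and Bcl6 (0.08) were level too. On the higher side, below 2-fold, were Cdkn1a, the cell cycle inhibitor p21, at 0.93 and the autophagy gene Atg12 at 0.46.

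Txnip, the inhibitor of thioredoxin, carried the FOXO consensus GTAAACA (capitals) in its promoter, printed here in the same way from RefSeq, 250 bases before the gene start.
Txnip, chr3:96557707-96557956, plus strand: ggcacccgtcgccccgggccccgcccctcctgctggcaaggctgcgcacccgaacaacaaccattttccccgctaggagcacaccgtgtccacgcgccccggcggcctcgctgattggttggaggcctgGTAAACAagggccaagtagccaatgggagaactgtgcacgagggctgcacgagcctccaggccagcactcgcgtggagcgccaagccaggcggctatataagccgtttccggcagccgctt
Txnip was at 11.16 on WT and 10.35 on Foxo3aKO, with 10.14 on Fancd2KO and 10.57 on DKO, so all knockout arrays lay below WT. The consensus, searched on both strands, occurred in 3.54% of all genes and in 3 of 33 target genes with a promoter, 9.09%, the others being Bcl2l11 and Hbp1 (-0.22). The 3 genes with a match had a median of -0.22 and the 30 without one a median of -0.32.

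Lists of cell cycle genes had medians from -0.25, for G1 cyclins and kinases, to 0.19, for cyclin-dependent kinase inhibitors and pocket proteins. Over all genes 44.6% were higher, 55.4% lower and 3.11% past 2-fold. Among cyclin-dependent kinase inhibitors and pocket proteins 7 of 9 were higher, led by Cdkn1a, with 7.21 on WT, 10.22 on Fancd2KO, 8.14 on Foxo3aKO and 7.48 on DKO, and Cdkn1b and Rbl2 (-0.39) were lower. G1 cyclins and kinases were lower in 10 of 11, with a median of -0.25 and 0 past 2-fold, from Mycn at -0.76 and Ccnd2 at -0.50 to Cdk2, the exception, at 0.47. Mitosis genes had a median of 0.02, which turned to -0.04 with each array centred on its median, and the proliferation genes Mki67 (0.09) and Top2a (0.04) were level. DNA replication genes had a median of -0.13, with Uhrf1 lowest at -0.80.

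Replication-dependent histone genes were lower in 18 of 19 members, 4 of them at least 2-fold, beside 55.4% and 1.30% of all genes. Their median was -0.59. The linker histone gene H1f1 was at 7.92 on WT, 6.77 on Fancd2KO, 5.91 on Foxo3aKO and 5.89 on DKO. H1f5 was at 11.80, 10.92, 10.38 and 10.75 on those arrays, and the core histone genes H2ac15 and H2ac21 differed by -1.56 and -1.37. All 3 knockout arrays lay below WT in these 4 genes. Histone genes have near-identical copies that can share probes, so the single values are uncertain. Telomerase and shelterin genes were lower in 13 of 18, beside 55.4% of all genes, with a median of -0.32, or -0.54 with a floor of 7.25. Terc, the RNA template of telomerase, was at 7.93 on WT and 6.24 on Foxo3aKO, with 7.30 and 7.06 on Fancd2KO and DKO. Gar1, which binds it, differed by -0.97, and the capping genes Stn1 and Pot1a by -0.91 and -0.83, while the reverse transcriptase gene Tert, near the floor, differed by -0.16.

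Lists of housekeeping, metabolic, stress and repair genes showed small medians. Over all genes 44.6% were higher on Foxo3aKO and 55.4% lower, with 1.81% at least 2-fold higher and 1.30% at least 2-fold lower. Cytosolic ribosomal protein genes were lower in 50 of 58, with a median of -0.16 and 0 past 2-fold, and respiratory chain genes in 50 of 73, with a median of -0.05. Glycolysis and hypoxia genes were higher in 16 of 27, with a median of 0.15, from Pfkm at -0.83 to Ndrg1 at 0.53. Antioxidant genes had a median of 0.01, Fanconi anaemia and recombination genes of -0.05, autophagy genes of -0.05 and p53 target genes of -0.00. The antioxidant median turned to -0.05 with centring, and that of p53 targets to 0.20 with a floor of 7.25. In the p53 list Plk2 (1.65), Plk3 (1.38) and Btg2 were past 2-fold, all of them genes induced by acute stimuli as well.

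**Figure D3:**
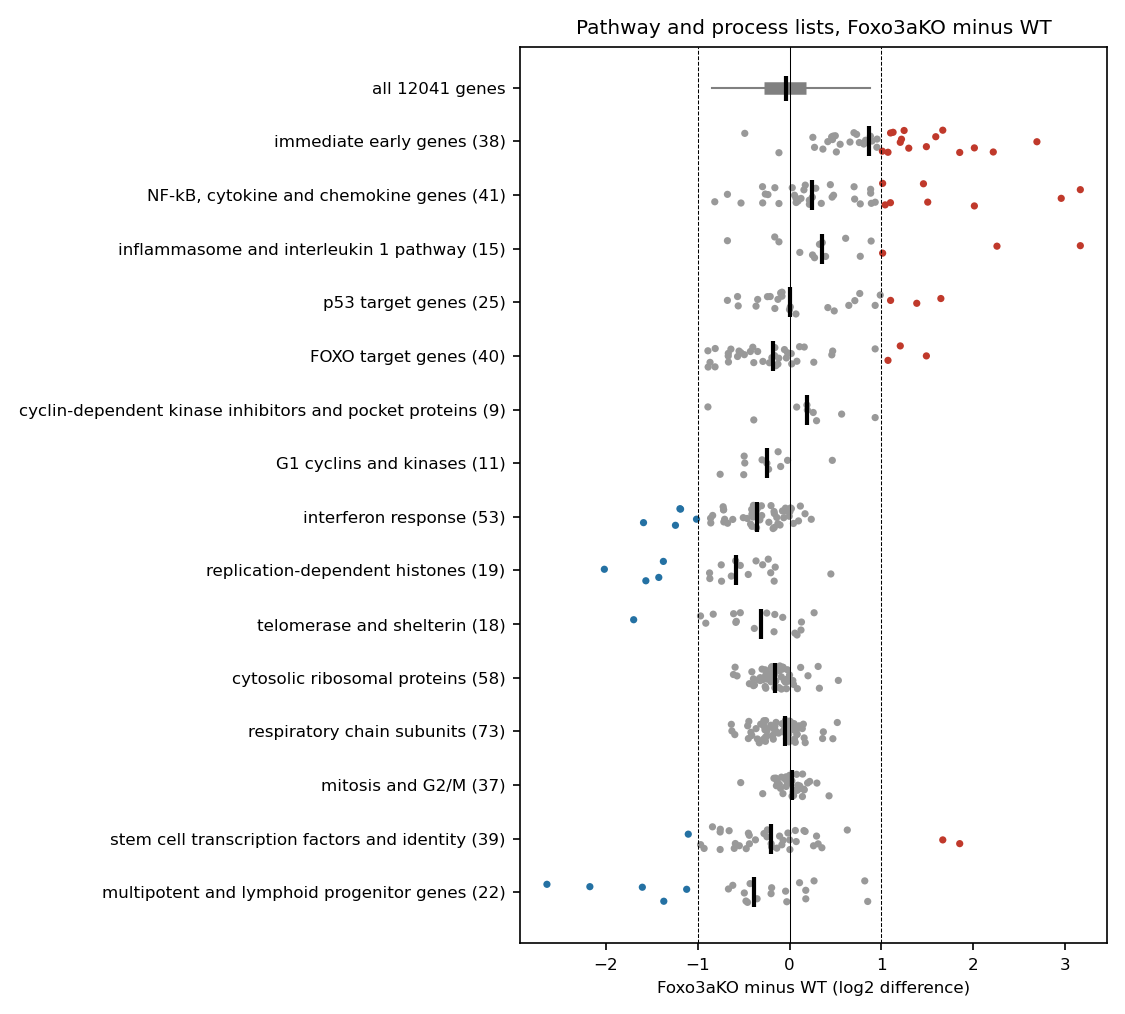
Difference Foxo3aKO minus WT on the log2 scale (horizontal axis) for the members of 15 lists, 1 point per gene, with a black bar at each median, red and blue for members past 2-fold and, at the top, the quartiles and the central 95% of all genes. Immediate early genes lie to the right with a median of 0.86, and histone, interferon response and progenitor genes lie to the left with medians of -0.59, -0.35 and -0.39.

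Genes of stem cell identity were lower in 26 of 39 cases, beside 55.4% of all genes, with a median of -0.20. Hoxb4, a self-renewal factor, was at 7.68 on WT, 6.70 on Fancd2KO, 6.58 on Foxo3aKO and 6.95 on DKO, and Hoxa9 differed by -0.97. Gata2 (-0.93), Lyl1 (-0.84), Gfi1b (-0.76) and Hlf (-0.66), further transcription factors of stem and early progenitor cells, were lower as well. Mecom (0.16), Procr (-0.08) and Fgd5 (0.00), commonly used as stem cell markers, were level. Only Egr1 and Nr4a1, also immediate early genes, were at least 2-fold higher in the list.

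Genes of multipotent and lymphoid progenitors were lower in 16 of 22 cases, 5 at least 2-fold, beside 55.4% and 1.30% of all genes. Their median was -0.39. Flt3, the receptor that marks multipotent progenitors, was at 8.97 on WT, 7.34 on Fancd2KO, 7.37 on Foxo3aKO and 6.67 on DKO. Dntt, the terminal transferase of early lymphoid cells, was at 8.74, 7.44, 6.57 and 5.62 on those arrays. In both genes every knockout array was below WT and DKO was the lowest. Ighm, the immunoglobulin heavy chain constant gene, was at 12.73 on WT and 10.09 on Foxo3aKO, and 2 further members were past 2-fold, Jchain (-1.37) and Cd34 (-1.12). Cd34 was at 10.79 on WT, 10.28 on Fancd2KO, 9.67 on Foxo3aKO and 10.36 on DKO, although the labels give a CD34-negative gate for all arrays.

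Genes used in sorting stem cells and genes of mature cells were read on each array. Ly6a, which encodes Sca-1, was not found among the genes measured. Kit was at 10.67 on WT and 10.57 on Foxo3aKO, Slamf1, which encodes CD150, at 7.25 and 7.51, and Cd48 at 8.17 and 8.13. In the full list of gate and identity genes 15 of 21 were lower and 6 higher, beside 55.4% and 44.6% of all genes. The 2 at least 2-fold lower were Flt3 and Cd34, beside 1.30% of all genes. Its median was -0.24, or -0.11 with the mean of a gene's probe sets. Granulocyte transcripts were read on every array. S100a8, a calcium-binding protein gene abundant in mature neutrophils, was at 13.02 on WT, 12.88 on Fancd2KO, 13.07 on Foxo3aKO and 12.91 on DKO, and Mpo, a granule enzyme of granulocyte precursors, at 11.41, 11.59, 11.65 and 11.77. In such bulk samples fewer cells of a type and less RNA per cell cannot be told apart.

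Over all genes, 44.6% were higher on Foxo3aKO, 1.81% at least 2-fold, and 55.4% were lower, 1.30% at least 2-fold, and the marker counts that follow stand beside these shares. Neutrophil markers were higher on Foxo3aKO in 24 of 25 cases, 4 at least 2-fold, with a median difference of 0.49. Their median level was 10.21 on WT, 10.44 on Fancd2KO, 10.79 on Foxo3aKO and 10.36 on DKO, with all 25 past the floor. The most abundant granule and calcium-binding genes differed little, with S100a8 at 0.05, S100a9 at 0.13 and Camp at 0.15. Other members differed more, with Ly6g at 0.71, the collagenase Mmp8 at 1.01, Ifitm6 at 1.14 and Olfm4 at 2.26, and the stefin gene Stfa1 (1.68), one of several similar copies, was also higher. Monocyte and macrophage markers were higher in 17 of 23, 4 at least 2-fold, with a median of 0.37. Cd14, the co-receptor for lipopolysaccharide, was at 5.52 on WT and 6.75 on Foxo3aKO, with 6.56 on Fancd2KO and 5.73 on DKO. F13a1 differed by 1.17, Irf8 by 1.25 and Ly86 by 1.15, against Spic, the factor of red pulp macrophages, at -1.65. C1qb (-0.91) and C1qa (-0.44) were also among the 6 lower members. Inflammatory genes such as Il1r2, Cxcl2, Nlrp3 and Il1b are also expressed by mature neutrophils and monocytes, and the part of those cells in the inflammatory differences was not tested.

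Eosinophil markers were lower in 6 of 6 genes compared, 4 at least 2-fold, with a median of -1.09. The eosinophil peroxidase gene Epx was at 9.62 on WT, 6.92 on Fancd2KO, 7.82 on Foxo3aKO and 6.35 on DKO, and the granule gene Prg2 at 12.33, 10.86, 11.54 and 10.69. WT was the brightest array and Foxo3aKO the next in both. Erythroid markers were lower in 13 of 15, 3 at least 2-fold, with a median of -0.53. The carbonic anhydrase gene Car1 was at 8.87 on WT, 7.45 on Fancd2KO, 7.39 on Foxo3aKO and 9.48 on DKO, and Ermap and Hemgn differed by -1.06 and -1.02. B cell markers were lower in 10 of 14, with a median of -0.41, among them Dntt, the B cell coactivator gene Pou2af1 (-1.27) and Vpreb3 (-0.99), with Bank1 (0.78), Cd24a (0.50) and Ebf1 (0.27) on the higher side. With a floor of 7.25 the median of the 7 members left was -0.72. The median levels of the eosinophil, erythroid and B cell lists were 9.47, 6.61 and 6.79 on WT and 8.07, 6.10 and 6.57 on Foxo3aKO, and the part of such cells in the lower progenitor and lymphoid genes was not tested.

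The remaining marker lists were mixed. Megakaryocyte and platelet markers were higher in 7 and lower in 7 of 14, with Thbs1 at one end, Ppbp at the other, and Pf4 and Itga2b at -0.53 and -0.42. Their median was -0.03, with 0.01 under cyclic loess and -0.35 with the floor dropped, which brought in 3 dim members. T and NK cell markers were higher in 7 of 11, with Cd3d far ahead of Ccl5 at 0.88, and 7 further members under the floor on all arrays. Their median of 0.15 went to 0.00 with dim signals raised, and Cd3e, under the floor on both arrays, from 0.72 to 0.00. Dendritic cell markers had a median of 0.30, with Siglech (1.31) and Irf8 higher and Flt3 and Bst2 lower. That median was 0.13 with the floor dropped and 0.086 with dim signals raised. Mast cell and basophil markers had a median of 0.35 and endothelial and stromal markers of -0.50, in each case with 7 members under the floor on all arrays, and both medians changed sign when the floor was dropped, to -0.15 and 0.057.

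**Figure D4:**
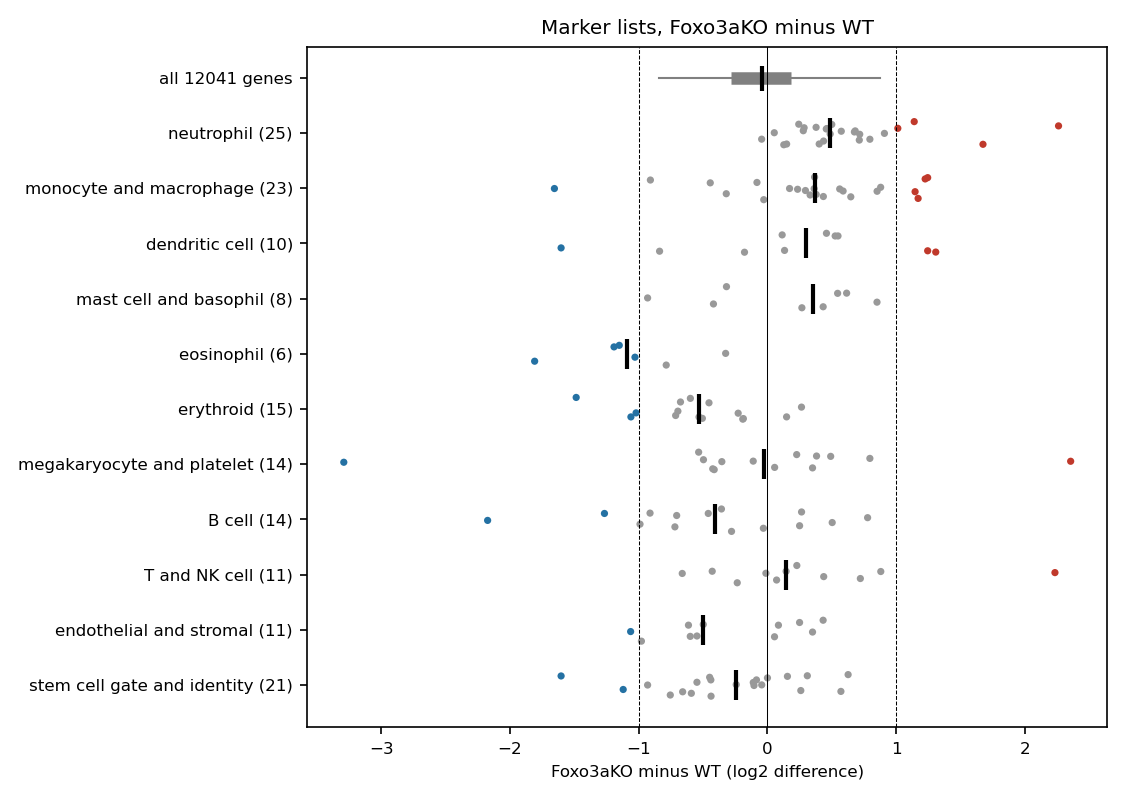
Difference Foxo3aKO minus WT on the log2 scale (horizontal axis) for marker genes of 11 cell types, 1 point per gene, with black bars at the medians, red and blue for members past 2-fold and the spread of all genes at the top. Neutrophil and monocyte markers lie mostly to the right with medians of 0.49 and 0.37, and eosinophil and erythroid markers lie mostly to the left with medians of -1.09 and -0.53.

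Transcripts of both sexes were present on every array. Xist, which silences an X chromosome in female cells, was at 11.06 on WT and 10.83 on Foxo3aKO. The Y-linked gene Eif2s3y was at 7.92 on WT and 8.81 on Foxo3aKO, and the 8 Y-linked genes compared had a median difference of 0.58. Of these 8 genes 2 were at least 2-fold higher, beside 1.81% of all genes. The mice's sex is not given in the sources used here, and its part in other differences was not tested.

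The same loss on a Fancd2 knockout background, DKO minus Fancd2KO, gave 181 genes at least 2-fold higher (1.503%) and 182 at least 2-fold lower (1.51%). By sign alone 5709 were higher there (47.4%) and 6325 lower (52.5%). Across the 12041 genes both differences correlated with a Pearson r of -0.06 and a Spearman rho of -0.01, a description in which genes are not independent replicates. Of the 218 genes higher on Foxo3aKO, 19 were also at least 2-fold higher on DKO than on Fancd2KO, which is 8.72% of the first list and 10.5% of the other, and 42 were at least 2-fold lower there, 19.3% of the 218. Of the 156 lower genes, 6 were also at least 2-fold lower, 3.85% of the first list and 3.30% of the other, and 11 were at least 2-fold higher, 7.05% of the 156. The 218 genes had a median of -0.25 in DKO minus Fancd2KO, and the 156 a median of 0.02.

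Genes higher in both pairs included several that encode surface receptors. Pilrb1, an activating receptor, was at 6.24 on WT and 8.14 on Foxo3aKO, and at 6.28 on Fancd2KO and 8.05 on DKO, so the 2 arrays labelled as lacking Foxo3a were each above both others. Clec4a3, a lectin receptor, was at 7.17 and 8.44, and at 6.40 and 11.17, in the same order. The signal-regulatory genes Sirpb1c and Sirpb1a, Ly86, the toll-like receptor gene Tlr8, the phagosomal metal transporter gene Slc11a1, the dipeptidase gene Dpep2, Klra17 and Cd300c2 completed the 10 with the largest values in both pairs. Pilrb1, Clec4a3, Klra17 and the Sirpb1 genes belong to families with similar copies, so their signals may be shared. With dim signals raised, Sirpb1c and Tlr8 differed by 0.83 and 0.91 in Foxo3aKO minus WT, under 2-fold. Monocyte markers as a list had medians of 0.37 and 0.94 in the pairs, and Fcgr4, an antibody receptor of patrolling monocytes, was at 5.90 on WT, 5.71 on Fancd2KO, 6.78 on Foxo3aKO and 9.97 on DKO. Lower in both pairs were Dntt, the arginine sensor homologue Castor2 (-1.22 and -1.20), the eosinophil granule gene Prg3 (-1.15 and -1.49) and Hmgn5, a nucleosome-binding protein gene (-1.02 and -1.80). Castor2 was under the floor on Foxo3aKO, and with dim signals raised its first difference was -0.90.

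Among other groups, some had medians of opposite sign in the pairs and some had medians of the same sign. Immediate early genes, with a median of 0.86 in Foxo3aKO minus WT, had a median of -0.97 in DKO minus Fancd2KO. Egr1 shows the arrangement, with 8.57 on WT and 8.53 on DKO, and 10.24 on Foxo3aKO and 10.71 on Fancd2KO, so that both single knockouts were bright and the 2 other arrays dim. Il1r2 differed by 3.16 and -1.53, and Ccl2 by 2.96 and -1.18. Interferon response genes, at -0.35 in the first pair, had a median of 0.08 in the other. Histone genes had medians of -0.59 and 0.24, erythroid markers of -0.53 and 0.49, and neutrophil markers of 0.49 and -0.08. FOXO target genes lay at -0.18 and -0.27, stem cell identity genes at -0.20 and -0.28, B cell markers at -0.41 and -0.60, and telomerase genes at -0.32 and -0.15. Of the 40 FOXO target genes 28 were lower in the first pair and 31 in the other, beside 55.4% and 52.5% of all genes. Such a lean was not particular to this list. Cytosolic ribosomal protein genes were lower in 50 and 45 of 58, and respiratory chain genes in 50 and 60 of 73. FOXO members lower in both pairs included Cdkn1b (-0.89 and -0.49), Gabarapl1 (-0.87 and -0.48), Sesn3 (-0.81 and -0.33) and Cat (-0.49 and -0.42). Txnip (-0.81 and 0.43) was not among them.

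**Figure D5:**
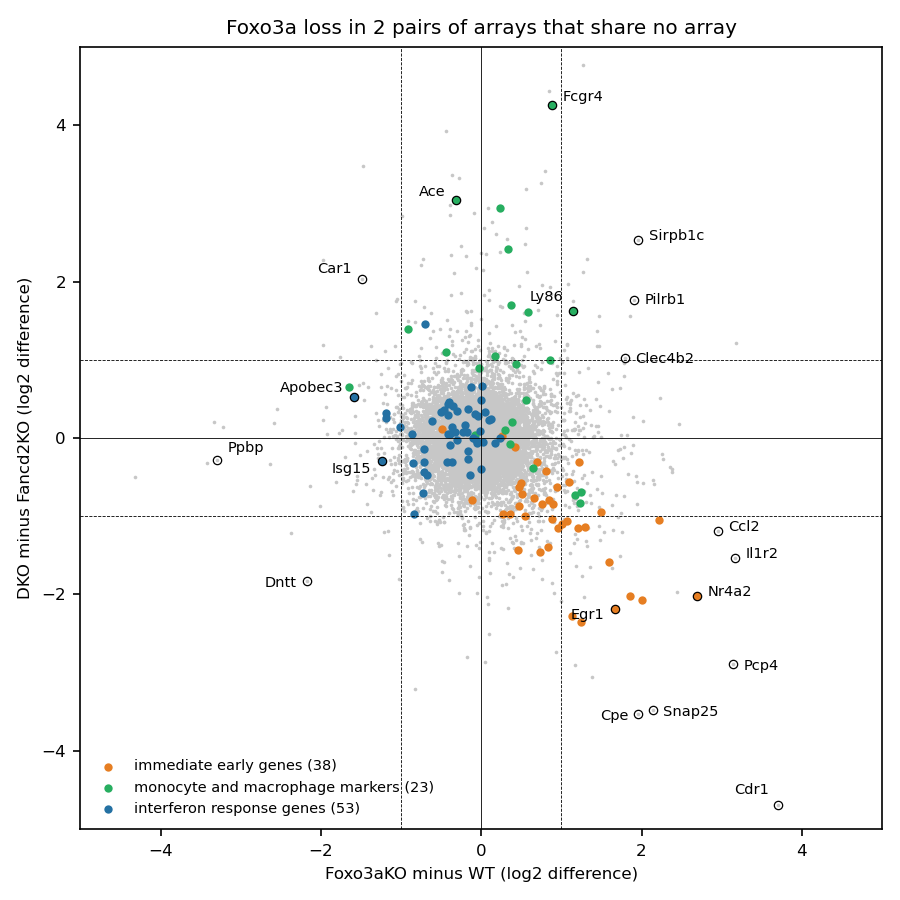
Difference Foxo3aKO minus WT (horizontal axis) against DKO minus Fancd2KO (vertical axis), both log2, for 12041 genes in grey with 3 lists in colour and dashed lines at 2-fold. Immediate early genes lie at the lower right, with medians of 0.86 and -0.97. The medians of monocyte and macrophage markers lie above 0 on both axes, at 0.37 and 0.94, with 6 and 5 of 23 members below 0.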

How the data were processed

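Log2 expression values of 41345 probe sets on 4 arrays were used as deposited by the authors, and per the submitters' processing notes they were made with Affymetrix Expression Console. Its version and its normalisation are not given in the sources used here. At every rank the arrays' sorted values lay within 0.0889 of their mean, so they were left as they were.

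Names came from the platform's annotation of probe sets, in which 23521 had 1 gene symbol, 1814 several and 16010 none, and 23328 Entrez identifiers of the first were found in RefSeq's gene table for GRCm38.p6. Only probe sets with 1 symbol stood for genes, the brightest by mean of the 4 arrays for each of 22180. Genes whose highest signal reached 5.51, the median of all gene values, were compared.

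Differences were subtracted on the log2 scale and counted at 2-fold. With 1 array per genotype no test was run, and the number of arrays limits the precision. A list was described by its counts and median beside all 12041 genes. Named are the FOXO genes, the 20 largest differences in each direction, list members past 2-fold or else the 5 largest, key members named for their role, and up to 10 genes past 2-fold in both pairs. Small RNAs, predicted genes, pseudogenes, antigen receptor segments and chemosensory receptors, 1184 of the genes compared, were counted and not named. Members and lists were chosen with earlier results of these data known.

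Promoters were RefSeq sequences of 250 bases. The counting was tested on simulated data. Alternatives were quantile, median-centring and cyclic loess scaling, no floor or one at 7.25, dim signals raised to the floor, the mean of a gene's probe sets and thresholds of 1.5-fold and 3-fold, and, added after seeing the data, lists without members that are also immediate early genes. Python 3.11.15, pandas 2.3.3, numpy 2.4.6 and R 4.3.3 with limma 3.58.1 (cyclic loess only) were used.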

Additional observations from a re-analysis of the deposited data

Results flagged for a closer look

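Genes at least 2-fold apart in Foxo3aKO minus WT and at least 2-fold apart the opposite way in DKO minus Fancd2KO drew attention, although with 1 array per genotype the difference between the pairs was not tested. Genes higher in the first pair and lower in the other were led by Cdr1 (-4.69 in DKO minus Fancd2KO), Cpe (-3.53), Snap25 (-3.47) and Pcp4 (-2.89), which are known from neurons and endocrine cells. The same held for the immediate early genes Socs3 (-2.35), Nr4a3 (-2.28), Egr1 (-2.18), Ptgs2 (-2.07), Nr4a2 (-2.02), Nr4a1 (-2.02), Fosb (-1.58), Klf6 (-1.14), Fos (-1.14), Sik1 (-1.10), Klf2 (-1.06) and Atf3 (-1.05). Il1r2 (-1.53), Skil (-1.38), Ccl2 (-1.18), Plk2 (-1.18) and Bhlhe40 (-1.01) complete the genes named for this. Of the 11 genes lower in the first pair and higher in the other, 3 are named. They are the erythroid gene Car1 (2.03), the fatty acid binding gene Fabp4 (1.75) and the histone gene H2ac21 (1.18). Fabp4 was under the floor on both WT and Foxo3aKO, and its difference there was 0.00 with dim signals raised. The median of immediate early genes was -0.97 in DKO minus Fancd2KO, and that of erythroid markers was 0.49, each opposite to its sign in Foxo3aKO minus WT.

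Probe sets that stood for no gene above also differed. Over all genes 1.81% were at least 2-fold higher on Foxo3aKO and 1.30% at least 2-fold lower. Of 1171 with several gene symbols past the floor, 33 were at least 2-fold higher on Foxo3aKO (2.82%) and 43 at least 2-fold lower (3.67%). Of 7869 with no listed gene past the floor, 885 were at least 2-fold higher (11.2%) and 462 at least 2-fold lower (5.87%). In DKO minus Fancd2KO, 623 of these 7869 were at least 2-fold higher and 713 at least 2-fold lower, so such differences were not particular to Foxo3aKO.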

How the results depend on the processing

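No paired analysis was possible because the labels give no replicate numbers that link arrays, and with 1 array per genotype none could be left out of a group. An additive model over the 4 arrays, with 1 residual degree of freedom, was not run, and both pairs were set side by side instead. With a floor of 7.25 there were 129 genes at least 2-fold higher and 90 lower, since fewer genes were compared. A 1.5-fold threshold gave 705 higher and 918 lower, with 81 higher and 73 lower in both pairs of arrays, and a 3-fold threshold gave 59 and 26, with 2 and 1 in both. The other scalings and settings gave between 157 and 281 higher and between 123 and 211 lower. The median of histone genes was -0.35 with no floor, -0.74 with the floor of 7.25 and -0.37 with dim signals raised, and that of NF-kB, cytokine and chemokine genes was 0.74 with the floor of 7.25. Without the floor, the medians of mast cell and basophil markers (-0.15) and of endothelial and stromal markers (0.057) changed sign. The cause of these shifts was not tested. Dim signals limit folds for genes under the floor on one array.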

Other observations

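A few further genes showed large differences between the WT and Foxo3aKO arrays outside the lists described above. Mrgpra2a, a receptor gene of the Mas-related family, was at 7.98 on WT, 9.14 on Fancd2KO, 9.999 on Foxo3aKO and 8.56 on DKO. Bhlhe40, a transcriptional repressor of the circadian clock list, was at 6.70, 8.96, 8.40 and 7.95 on those arrays, WT being the lowest. The list's median was 0.09, or 0.55 with a floor of 7.25, and 10 of 15 members were higher, beside 44.6% of all genes. Skil, which restrains TGF-beta signalling, was at 6.55, 8.37, 7.87 and 6.98. Fn1, the fibronectin gene, was at 8.61, 8.10, 9.70 and 7.21, highest on Foxo3aKO and lowest on DKO, in an adhesion list with a median of -0.02 that turned to 0.01 under cyclic loess. Smim24, a small membrane protein gene, was at 8.81, 8.05, 7.37 and 7.46, highest on WT. Haem synthesis and iron genes were lower on Foxo3aKO in 10 of 14 cases, beside 55.4% of all genes, with a median of -0.18. The kinase gene Sgk1, at 5.30 on WT and 6.35 on Foxo3aKO, was the member past 2-fold of 29 PI3K, AKT and mTOR signalling genes, whose median was -0.06. Its WT signal was under the floor, and with dim signals raised it differed by 0.85, under 2-fold.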
